A study of Mus musculus with 15 samples.

Results

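Gas5, Snhg1, Snhg3, Snhg5, Snhg8, Snhg12 and Snhg15, which are long noncoding RNAs that carry small nucleolar RNAs (snoRNAs) in their introns, and the nuclear long noncoding RNAs Malat1 and Neat1 were followed in RAW 264.7 cells exposed to silica nanoparticles. The 9 genes were chosen by name from the 57186 genes listed in the count table, and all 9 were among the 19839 genes tested. RAW 264.7 is a mouse macrophage cell line, so every group came from the same line. The 15 libraries fell into 5 groups of 3. Cells received nonporous particles of 100 nm nominal diameter at 50 µg/mL (SNP100), nonporous particles of 50 nm at 25 µg/mL (SNP50), mesoporous particles of 100 nm at 200 µg/mL (MSNP) or hollow mesoporous particles of 100 nm at 200 µg/mL (HMSNP), each for 6 h, and the fifth group was left nontreated (Control). Doses differed between all particle types except MSNP and HMSNP, so a difference between other groups cannot be told apart from the difference in dose. All 10 macrophage markers were detected, and 0 of the markers of lymphocytes, fibroblasts, epithelial, endothelial or red blood cells reached 1 CPM (counts scaled to 1000000 per library).

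Most snoRNAs of mammals are cut out of introns of longer host transcripts. They guide chemical marks onto ribosomal RNA, box C/D snoRNAs for 2′-O-methylation and box H/ACA snoRNAs for pseudouridylation. The spliced host that remains is poorly conserved, and many of these hosts start with a run of pyrimidines like that of ribosomal protein mRNAs and are removed by nonsense-mediated decay when they are translated. Gas5 was named for its accumulation in growth-arrested cells, and its spliced RNA is a known sensor of slowed translation and of mTOR activity. Malat1 is an abundant RNA of nuclear speckles, where splicing factors are stored, and Neat1 is the scaffold of paraspeckles, nuclear bodies that hold RNA-binding proteins. The end of Malat1 and of the long form of Neat1 is a triple helix rather than a poly(A) tail, while the libraries were made from poly(A)-selected RNA. Their counts therefore describe what that selection kept.

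The 7 hosts held 27 annotated snoRNA loci on their own strand, 9 in Gas5, 8 in Snhg1, 4 in Snhg12, 2 each in Snhg3 and Snhg5, and 1 each in Snhg8 and Snhg15, whereas Malat1 and Neat1 held 0. Box C was searched as TGATGA in the first 20 bases and box D as CTGA in the last 15 bases, on the strand of the gene. Both were found in 15 of the 27 loci (55.6%), against 20.2% of the 1507 annotated mouse snoRNA genes. A further 6 loci were over 100 bases long with ACA within the last 10 bases, the form of a box H/ACA snoRNA, which 43.8% of all annotated snoRNA genes had. Examples from Gas5, Snhg5 and Snhg8 show what is carried, with the matched letters in capitals (GRCm39, 5′ to 3′). Snord80 and Snord47 lie in Gas5, at chr1:160865171-160865251 and chr1:160865652-160865728 on the plus strand. Snord50a and Snord50b lie in Snhg5, at chr9:88403582-88403653 and chr9:88403850-88403921 on the minus strand. Snora24 lies in Snhg8, at chr3:123301586-123301715 on the minus strand.
Snord80: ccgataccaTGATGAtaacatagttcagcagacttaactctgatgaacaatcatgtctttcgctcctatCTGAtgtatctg
Snord47: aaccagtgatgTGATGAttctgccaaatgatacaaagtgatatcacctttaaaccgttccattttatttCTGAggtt
Snord50a: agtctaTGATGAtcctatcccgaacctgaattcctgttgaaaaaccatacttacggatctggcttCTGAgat
Snord50b: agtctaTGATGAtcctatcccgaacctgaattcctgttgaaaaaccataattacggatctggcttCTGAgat
Snora24: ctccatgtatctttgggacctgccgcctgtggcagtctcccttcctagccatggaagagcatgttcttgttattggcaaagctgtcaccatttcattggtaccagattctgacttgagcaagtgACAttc

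The first transcribed bases are shown because many snoRNA hosts are known for a pyrimidine start. Windows of 30 bases, 10 before the annotated start and 20 from it, came from RefSeq (GRCm38.p6), which held 8 of the 9 genes. Capitals mark a C followed by at least 4 further C or T letters whose first base lay within 5 bases of the annotated start. Gas5 has 2 annotated starts, of which the downstream one, which holds a run, is shown, and the other holds none. The windows are chr1:161035156-161035185 (Gas5, plus strand), chr19:8723477-8723506 (Snhg1, plus), chr4:132353667-132353696 (Snhg3, minus), chr9:88522878-88522907 (Snhg5, minus), chr3:123508317-123508346 (Snhg8, minus), chr4:132308668-132308697 (Snhg12, plus) and chr11:6528741-6528770 (Snhg15, minus).
Gas5: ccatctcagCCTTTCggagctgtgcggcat
Snhg1: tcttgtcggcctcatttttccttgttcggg
Snhg3: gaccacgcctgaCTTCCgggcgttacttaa
Snhg5: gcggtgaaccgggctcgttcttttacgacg
Snhg8: gttcagaagtCTCTTTggctgcgatccgcc
Snhg12: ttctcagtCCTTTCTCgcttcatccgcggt
Snhg15: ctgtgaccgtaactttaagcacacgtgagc
Counting a gene if any of its annotated starts had such a run, it was present in 4 of the 7 hosts, in 7 of 15 listed translation genes known for this start, and in 21.2% of the 27025 genes of the table. Snhg1, Snhg5, Snhg15 and Malat1 had none. The run was searched on the strand of the gene, and the annotated start may differ from the start used in these cells.

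In the nontreated controls, per kilobase of all annotated exons, Malat1 was the most abundant of the 9 at 82.6 ± 11.0 CPM (SD, n = 3), followed by Gas5 at 44.3 ± 12.8. Snhg1 (16.5 ± 4.64 CPM per kilobase), Snhg8 (14.2 ± 6.37), Snhg3 (13.8 ± 3.04) and Neat1 (13.6 ± 6.37) did not differ beyond their spread, nor did Snhg12 (6.72 ± 2.10), Snhg5 (6.17 ± 1.77) and Snhg15 (5.31 ± 1.68). The order depends on the transcript assumed. Over the canonical spliced transcript Gas5 (669 bases, 11 exons) came first at 280 ± 81.0 CPM per kilobase, ahead of Malat1 (7886 bases, 1 exon). All levels below are CPM after TMM normalization and are compared only within a gene.

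**Figure D1:**
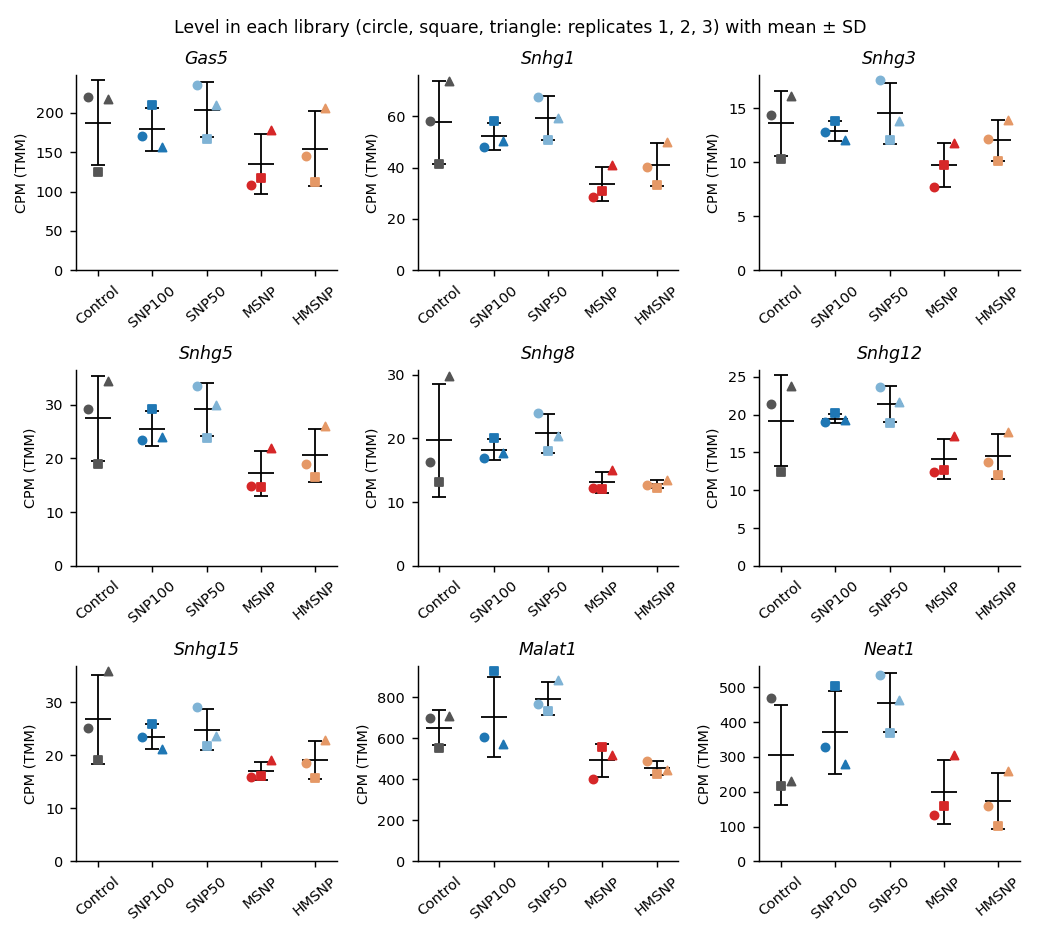
Level of each of the 9 RNAs (CPM, vertical axis from 0) in the 3 libraries of each group, with the mean and SD as black bars. Snhg1 lay between 28.8 and 41.2 CPM in the MSNP-treated libraries and between 41.4 and 73.8 CPM in the controls, and the libraries of a group stood in much the same order for all 7 hosts.

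The hosts moved together between replicate libraries. SNP100 replicate 2, SNP50 replicate 1, MSNP replicate 3 and HMSNP replicate 3 each held the highest level of their group for all 7 hosts. In the controls, replicate 3 was highest for 6 of 7 hosts and replicate 2 lowest for all 7. Gas5 read 220 CPM in Control replicate 1, 125 in replicate 2 and 217 in replicate 3, so that 1 control lay below every SNP100- and SNP50-treated library. Snhg8 spread most among the controls, with 16.2, 13.1 and 29.8 CPM, a ratio of 2.27 between the highest and the lowest library. Over the 15 libraries, Pearson's r on log2 CPM between pairs of hosts ranged from 0.77 to 0.99, between a host and Malat1 from 0.67 to 0.77, and between a host and Neat1 from 0.65 to 0.85. These values describe libraries that share their group and their depth.

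Some other properties of the libraries varied alongside the hosts, and others less so. Mitochondrial ribosomal RNA (mt-Rnr1 and mt-Rnr2 summed), which has only short A tails, was highest in the same library as the summed hosts in 4 of 5 groups and lowest in the same library in 4 of 5. It read 228 CPM in Control replicate 2 and 649 CPM in Control replicate 1. Among the treated groups it lay between 302 and 459 CPM with MSNP, 357 and 659 with HMSNP, 470 and 743 with SNP100 and 453 and 682 with SNP50. The share of counts in other long noncoding RNAs matched the highest library of the hosts in 4 of 5 groups and the lowest in 4. Total counts, from 29369934 to 42617812 per library, matched the highest in 2 of 5 groups and the lowest in 2. For 18S ribosomal RNA these matches were 1 and 3, and for other RNAs without a poly(A) tail 2 and 4. The controls also differed in a trend with gene length. For the shortest of 10 length classes of genes, the median deviation (log2) was 0.61 in Control replicate 3 and -0.38 in Control replicate 2. In the 12 treated libraries it lay between -0.09 and 0.14. Control replicate 1 reached 19451 CPM of 18S ribosomal RNA, against 421 to 5141 CPM in the 12 treated libraries. Between 2 libraries of a group, the mean chi-square per gene was 73.1 to 226 in the controls and 4.95 to 15.3 in the treated groups. The model shared 1 estimate of the spread per gene over all groups, so it did not separate the wider spread of the controls. The part of these properties in the results below was tested only through the alternatives given beside them.

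**Figure D2:**
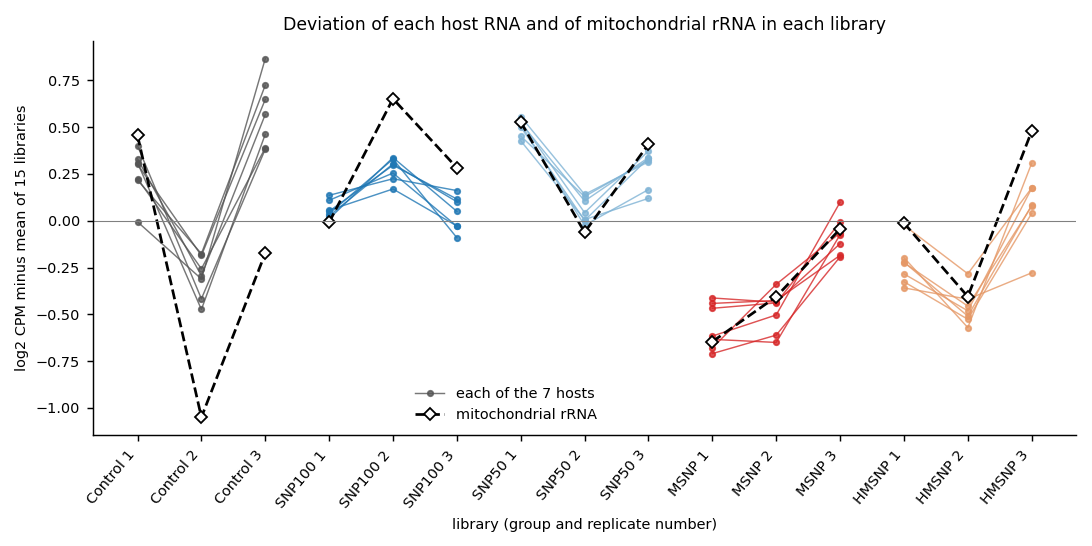
Deviation of log2 CPM from the mean of 15 libraries (vertical axis) for each of the 7 hosts (coloured lines) and for mitochondrial ribosomal RNA (black dashed line), by library. Within each treated group all 7 host lines have their highest point at the same library, where the mitochondrial line has its own, while in the controls the mitochondrial line is highest in replicate 1.

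The first question was whether mesoporous particles changed these RNAs. In the MSNP-treated group all 9 were fitted lower than in the nontreated controls, and Snhg1, Snhg15 and Snhg5 fell. The median log2 fold change of the 7 hosts was -0.59, against -0.05 over all tested genes. Snhg1, whose snoRNAs include Snord22, read 28.8, 30.8 and 41.2 CPM in the 3 MSNP-treated libraries and 58.0, 41.4 and 73.8 CPM in the controls. Every treated library lay below every control, with the highest treated library just under Control replicate 2. The log2 fold change was -0.78 ± 0.20 (SE; edgeR quasi-likelihood test with Benjamini-Hochberg adjustment, adjusted p = 0.0103), or 1.72-fold lower. Snhg15, host of Snora9, read 16.0, 16.1 and 19.1 CPM with MSNP and 25.2, 19.2 and 35.9 CPM in the controls, again without overlap (log2 fold change -0.65 ± 0.19, edgeR adjusted p = 0.0247). Snhg5, host of Snord50a and Snord50b, read 14.9, 14.7 and 22.0 CPM with MSNP. Its controls read 29.1, 18.9 and 34.4 CPM, so the highest treated library passed the lowest control (log2 fold change -0.67 ± 0.23, edgeR adjusted p = 0.0437).

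The other hosts were fitted lower without passing the edgeR test. Snhg8 had a log2 fold change of -0.59 ± 0.22 (edgeR adjusted p = 0.0702), Snhg3 of -0.49 ± 0.19 (0.0802), Snhg12 of -0.44 ± 0.21 (0.141) and Gas5 of -0.47 ± 0.25 (0.203). Gas5 read 109, 118 and 179 CPM with MSNP, and its groups overlapped through Control replicate 2 and MSNP replicate 3. In all, 7 of the 9 genes had an unadjusted p under 0.05, as did 6842 of the 19839 tested genes. After adjustment 3 of the 9 were called lower and 0 higher, while 11% of all tested genes were called lower and 11.8% higher. Groups did not overlap for 2 of the 9, both lower, against 16.2% of all tested genes. Among the 516 other annotated long noncoding RNA genes with a mean of at least 1 CPM, 30.6% were called lower and the median log2 fold change was -0.38, against 15.3% and -0.01 over all 11540 genes of that level. The share of 3 in 9 was thus near that of other long noncoding RNAs.

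Both the fitted values and the calls with MSNP moved with single libraries. The median of the hosts ran from -0.82 without Control replicate 2 to -0.35 without Control replicate 3. Shares of all tested genes called in either direction, 22.8% with all libraries, are given beside the counts. Without Control replicate 2, 8 of 9 genes were called lower (all except Neat1), with 32.9% of all genes. Only Snhg1 was called without Control replicate 3 (29.1% of all genes) or without MSNP replicate 2 (17.3%), and 0 were called without MSNP replicate 1 (17.4%). Snhg1 was called under 24 of 26 alternatives, Snhg15 under 22 and Snhg5 under 14. DESeq2 called 4 lower (24.9% of all genes), the same 3 and Snhg8 (DESeq2 adjusted p = 0.0432). With mitochondrial ribosomal RNA as a covariate, 6 were called lower (22.9% of all genes), and with only the 6 libraries of the comparison, 0 (10.9%). An offset removing each library's trend with gene length gave a median of the hosts of -0.42, with 4 called lower (26% of all genes). That offset without Control replicate 3 gave -0.37, with 2 called lower (30.6%). In these 2 fits the log2 fold change of Snhg8 was -0.33 and -0.16, and that of Snhg1 was -0.68 and -0.58. In bulk RNA, fewer copies per cell and fewer cells that hold the RNA cannot be told apart.

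**Figure D3:**
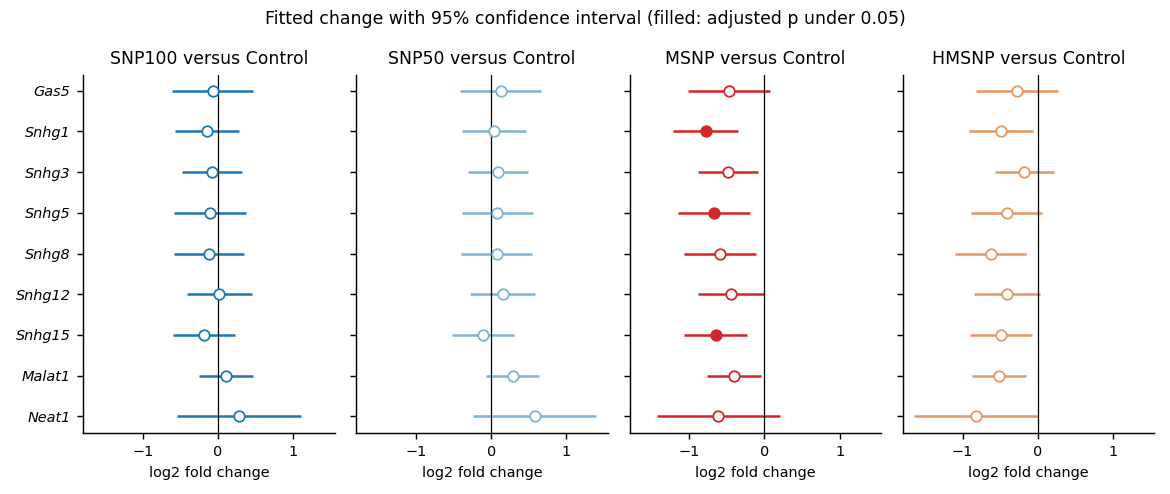
Fitted log2 fold change (horizontal axis) of each of the 9 RNAs with its 95% confidence interval in each treated group against the controls, filled where the adjusted p was under 0.05. Filled points are Snhg1, Snhg5 and Snhg15 with MSNP, and the MSNP and HMSNP values all lie left of 0.

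In the HMSNP-treated group, the same 9 RNAs were again fitted lower than in the controls and 0 passed the adjusted threshold, while edgeR called 2.46% of all tested genes higher and 2.7% lower. Unadjusted p was under 0.05 for 4 of the 9 and for 4771 of the 19839 tested genes. DESeq2 called 2 of the 9 (Snhg8 and Malat1), with 9.8% of all genes in either direction. The median of the hosts was -0.42 (log2), against -0.04 over all tested genes, and ran from -0.64 without Control replicate 2 to -0.21 without Control replicate 3. Snhg8, host of Snora24, read 12.7, 12.2 and 13.4 CPM with HMSNP and had a log2 fold change of -0.63 ± 0.22 (edgeR adjusted p = 0.114). The treated libraries lay close together, while the controls ran from 13.1 to 29.8 CPM. Snhg1 read 40.4, 33.0 and 49.9 CPM (log2 fold change -0.49 ± 0.20, edgeR adjusted p = 0.158), between its MSNP and its control levels. Snhg15 had a log2 fold change of -0.49 ± 0.19, Snhg5 of -0.42 ± 0.22, Snhg12 of -0.41 ± 0.20, Gas5 of -0.28 ± 0.25 and Snhg3 of -0.18 ± 0.19. The count of 0 became 6 without Control replicate 2, where the share of all genes called rose from 5.16% to 25.2%. It became 1 (Malat1) without SNP100 replicate 2 (4.2% of all genes) and 7 with mitochondrial ribosomal RNA as a covariate (6.53%). The offset for gene length gave a median of the hosts of -0.34, with 1 gene (Malat1) called (7.41% of all genes). That offset without Control replicate 3 gave -0.19, with 0 called (10.1%).

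With the nonporous particles, no change in the 9 RNAs passed the test. With SNP100, edgeR called 0 of 9 at an adjusted p under 0.05 and 0 at an unadjusted p under 0.05, while 0.509% of all tested genes were called higher and 0.403% lower. With SNP50 the counts were also 0 and 0, with 0.454% of tested genes higher and 0.958% lower. DESeq2 called 0 in both comparisons. The hosts had a median log2 fold change of -0.11 with SNP100, ranging from -0.19 (Snhg15) to 0.02 (Snhg12), and of 0.08 with SNP50, ranging from -0.11 (Snhg15) to 0.15 (Snhg12). For Snhg1 the 95% interval of the difference ran from -0.57 to 0.28 with SNP100 and from -0.39 to 0.46 with SNP50, so differences within those bounds were not excluded. Leaving out 1 library moved the median of the hosts between -0.32 and 0.08 with SNP100 and between -0.13 and 0.25 with SNP50. In SNP50 against the controls 1 gene, Snhg8, was called higher without Control replicate 3. In that fit 18.6% of all tested genes were called in either direction, against 1.41% with all libraries.

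Malat1 and Neat1 had their highest group mean with SNP50 and their lowest with HMSNP. Malat1 read 400, 556 and 521 CPM with MSNP, 491, 428 and 445 CPM with HMSNP, 607, 928 and 574 CPM with SNP100, 765, 733 and 882 CPM with SNP50, and 696, 552 and 707 CPM in the controls. HMSNP-treated libraries all lay below the controls, with a log2 fold change of -0.52 ± 0.17 (edgeR adjusted p = 0.0905), and 12% of all tested genes were lower in HMSNP without overlap. SNP50-treated libraries all lay above the controls, with a log2 fold change of 0.28 ± 0.17 (edgeR adjusted p = 0.552), and 6.26% of all tested genes were higher in SNP50 without overlap. With MSNP the log2 fold change of Malat1 was -0.40 ± 0.17 (edgeR adjusted p = 0.0999).

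Neat1 had wide spreads. It read 133, 160 and 305 CPM with MSNP, 158, 101 and 260 CPM with HMSNP, 328, 505 and 279 CPM with SNP100, 536, 369 and 463 CPM with SNP50, and 470, 216 and 230 CPM in the controls. The control mean of 305 ± 143 CPM (SD, n = 3) rested on 1 high library, Control replicate 1. Log2 fold changes were -0.61 ± 0.38 with MSNP, -0.82 ± 0.39 with HMSNP and 0.58 ± 0.38 with SNP50, with edgeR adjusted p of 0.281, 0.212 and 0.618. The 95% interval with HMSNP ran from -1.64 to 0.01. Without Control replicate 1 the log2 fold changes of Neat1 were -0.14 with MSNP, -0.34 with HMSNP and 1.05 with SNP50.

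Between particles of the same nominal diameter, porosity was compared through MSNP against SNP100, at 200 and 50 µg/mL. All 9 RNAs were fitted lower with MSNP, and Snhg1 and Malat1 fell. Snhg1 averaged 33.6 ± 6.66 CPM with MSNP and 52.2 ± 5.30 CPM with SNP100 (log2 fold change -0.64 ± 0.20, edgeR adjusted p = 0.0400). Malat1 averaged 492 ± 81.5 and 703 ± 195 CPM (log2 fold change -0.51 ± 0.17, edgeR adjusted p = 0.0467). These 2 of 9 called lower stand beside 7.53% of all tested genes called lower and 10.4% called higher. For 7 of the 9, the exceptions being Gas5 and Neat1, every MSNP-treated library lay below every SNP100-treated library, which held for 22.7% of all tested genes. The median of the hosts was -0.46 (log2), and among the 516 other long noncoding RNA genes it was -0.36, with 24.6% called lower.

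The calls against SNP100 also moved with single libraries, beside a share of all genes called in either direction of 17.9% with all libraries. They numbered 6 without Control replicate 3 (32.6% of all genes), 4 without Control replicate 2 (20.6%) and 3 without MSNP replicate 3 (14.6%). They numbered 0 without MSNP replicate 1 (13.2%), SNP100 replicate 2 (13.6%), SNP50 replicate 3 (16.6%) or HMSNP replicate 1 (16.6%). Leaving out any other library left 1. The median of the hosts ran from -0.63 to -0.40. The fit to these 6 libraries alone, which leaves the spread of the controls out, called 9 of 9 lower and 35.4% of all tested genes in either direction. With mitochondrial ribosomal RNA as a covariate 0 were called, with 13.7% of all genes, and the median of the hosts was -0.18. DESeq2 called 2 lower, Snhg1 and Malat1, with 19.6% of all genes.

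MSNP and HMSNP were given at the same dose. Of the 9 RNAs edgeR called 0 between them, with 0 at an unadjusted p under 0.05 and 0 by DESeq2, while 9.22% of all tested genes were called higher in HMSNP and 11% lower. Snhg3 showed the largest fitted difference among the hosts, 0.31 ± 0.19 higher with HMSNP on the log2 scale, with a 95% interval from -0.10 to 0.71. Snhg1 differed by 0.29 ± 0.20 (95% interval -0.14 to 0.72), Snhg5 by 0.26 ± 0.23 (-0.23 to 0.74) and Malat1 by -0.11 ± 0.17 (-0.47 to 0.24), so differences within these bounds were not excluded. The median of the hosts, 0.20 with all libraries, ran from 0.01 to 0.45 with 1 library left out. Between SNP50 and SNP100, which differ in size and in dose, 0 of 9 were called, at an adjusted or an unadjusted p under 0.05 and by DESeq2. Of all tested genes 0% were called higher and 0% lower, and 867 had an unadjusted p under 0.05. The median of the hosts was 0.18, and all 9 were fitted higher with SNP50.

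**Figure D4:**
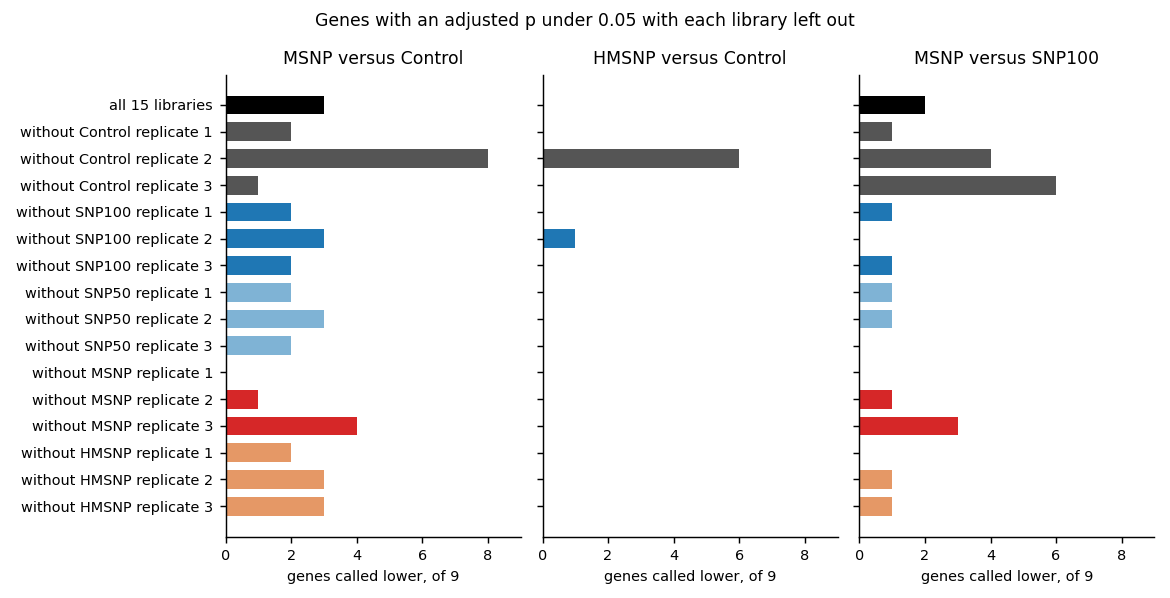
Number of the 9 RNAs called lower (horizontal axis) with all 15 libraries and with each library left out, in 3 comparisons. The count ran from 0 to 8 for MSNP and from 0 to 6 for HMSNP against the controls, with the highest counts without Control replicate 2, and from 0 to 6 for MSNP against SNP100, with the highest count without Control replicate 3.

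Other noncoding snoRNA hosts had medians close to those of the 7 hosts. Of 14 listed, 12 were tested, and their median log2 fold change was -0.53 with MSNP and -0.43 with HMSNP. Snhg7 fell with MSNP, from 10.2 ± 3.64 CPM in the controls to 5.69 ± 1.47 CPM (log2 fold change -0.84 ± 0.28, edgeR adjusted p = 0.0449). Snhg10, at a low level, fell with HMSNP from 1.32 ± 0.458 CPM in the controls to 0.586 ± 0.177 CPM (log2 fold change -1.15 ± 0.29, edgeR adjusted p = 0.0351). With each of these particles the other 11 tested hosts did not pass, and 0 of the 12 were called with SNP100 or SNP50. Translation genes listed for a pyrimidine start had a median of -0.20 with MSNP and -0.23 with HMSNP. Only 2 of the 22 fell with MSNP, the elongation factor subunit Eef1b2 (-0.50 ± 0.17) and Nap1l1 (-0.23 ± 0.07), and 0 were called with HMSNP. Of all tested genes, 11% were called lower with MSNP and 2.7% with HMSNP.

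The list counts that follow stand beside 11.8% of all tested genes called higher and 11% lower with MSNP. With HMSNP these shares were 2.46% and 2.7%. Of 14 proteins that build snoRNA particles, 1 rose with MSNP, the assembly factor Naf1 (log2 fold change 0.28 ± 0.08), and 0 were called with HMSNP. Among 17 factors of nonsense-mediated decay, the pathway that removes spliced host RNAs, Smg8 (0.43 ± 0.08) and the release factor Etf1 (0.31 ± 0.06) rose with MSNP and Upf3b fell (-0.49 ± 0.17), and 0 were called with HMSNP. Of 16 paraspeckle proteins, the partners of Neat1, 3 fell and 1 rose with MSNP. Hnrnph3 fell from 77.7 ± 7.78 CPM in the controls to 46.3 ± 1.24 CPM with MSNP (log2 fold change -0.75 ± 0.07, edgeR adjusted p = 1.25e-06) and to 43.5 ± 0.918 CPM with HMSNP (-0.84 ± 0.07, edgeR adjusted p = 4.96e-06). Hnrnpr fell by 0.29 ± 0.07 and Rbmx rose by 0.25 ± 0.06 with MSNP. Of 18 nuclear speckle proteins, the splicing factor Srsf5 fell with MSNP (-0.35 ± 0.10) and Srsf7 with HMSNP (-0.34 ± 0.09).

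Genes of the integrated stress response, in which phosphorylated eIF2 slows translation while ATF4 raises amino acid and stress genes, parted between the porous particles. With MSNP 15 of 21 rose and 2 fell, led by Ddit3, the stress factor CHOP (log2 fold change 2.39 ± 0.10), and Ppp1r15a, a subunit of the eIF2 phosphatase (1.56 ± 0.07). Nupr1 (-0.40 ± 0.12) and Ddit4 (-0.32 ± 0.08) were the 2 that fell. With HMSNP 0 rose and 16 of 21 fell, led by Chac1 (-2.99 ± 0.14), a glutathione-degrading enzyme, and the kinase-like Trib3 (-2.71 ± 0.10). Between HMSNP and MSNP 20 of 21 were lower with HMSNP. Of all tested genes, 11.8% rose and 11% fell with MSNP, 2.46% rose and 2.7% fell with HMSNP, and 11% were lower with HMSNP than with MSNP. The 7 hosts had medians of -0.59 and -0.42 in the same comparisons against the controls, so their fitted direction was shared where that of the stress genes was opposite. Both comparisons use the same control libraries.

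**Figure D5:**
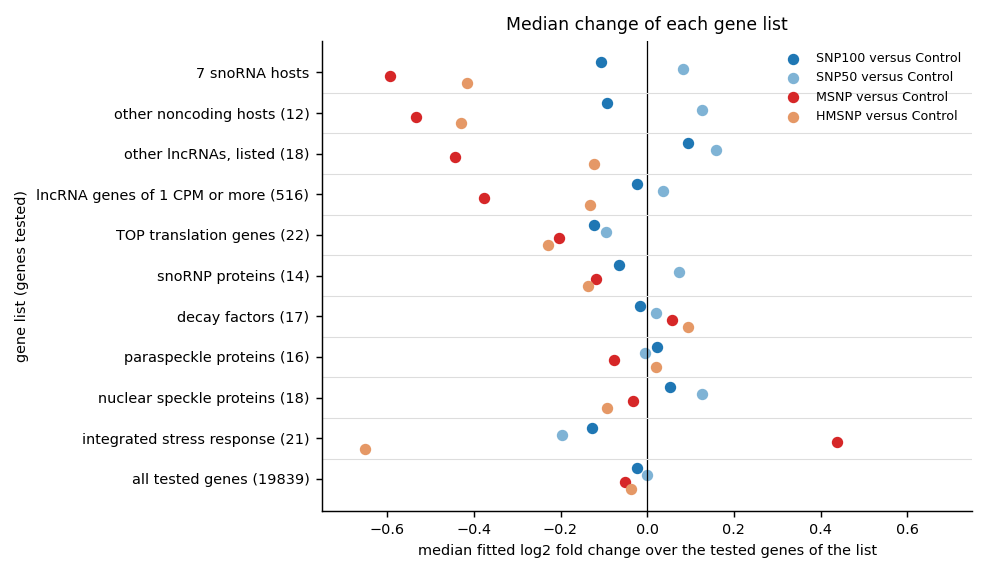
Median fitted log2 fold change against the controls (horizontal axis) over the tested genes of each list, with 1 point per particle. The 7 hosts and the 12 other hosts lie left of 0 with MSNP and HMSNP, while the integrated stress response genes lie at 0.44 with MSNP and -0.65 with HMSNP.

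Of 26 other named long noncoding RNAs 18 were tested, and 4 fell with MSNP, 0 with HMSNP, 7 were lower with MSNP than with SNP100 and 5 were higher with HMSNP than with MSNP. In the same order, the shares of all tested genes called were 11%, 2.7%, 7.53% and 9.22%. The largest decreases with MSNP at 1 CPM or more were Mir22hg, the host of miR-22 (from 10.2 ± 2.60 to 5.28 ± 1.25 CPM, log2 fold change -0.94 ± 0.21, edgeR adjusted p = 0.00364), and Ptprv (-0.94 ± 0.29, edgeR adjusted p = 0.0263). Ptprv is also the symbol of a receptor tyrosine phosphatase gene, so its place on this list of noncoding RNAs is uncertain. Over the 516 long noncoding RNA genes, 30 were called higher and 158 lower with MSNP, and 9 higher and 31 lower with HMSNP. RNAs without a poly(A) tail, listed as a sign of the library, had a median of -0.97 with MSNP and -2.40 with HMSNP. Summed without ribosomal RNA, they read 16.7 CPM in Control replicate 1, 0.925 in Control replicate 2 and 1.41 in Control replicate 3. The sum lay between 0.727 and 2.35 CPM with MSNP and between 0.424 and 0.793 CPM with HMSNP, so Control replicate 1 stood apart. The high 18S ribosomal RNA of Control replicate 1 was part of that list, and 18S RNA (Rn18s-rs5) averaged 6994 ± 10789 CPM in the controls and 524 ± 94.2 CPM with HMSNP.

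The genes whose log2 CPM ran most like each host over the 15 libraries were often other hosts, which filled 8 of the 21 places. Snhg16 was closest to Gas5 (Pearson's r = 0.99) and to Snhg3 (0.96), Snhg7 to Snhg5 (0.99) and Snhg20 to Snhg12 (0.97). The splicing factor gene Srsf5 was closest to Snhg1 (0.98), Tsen54, a subunit of the tRNA splicing endonuclease, to Snhg8 (0.99) and the noncoding 1110038B12Rik to Snhg15 (0.97). Neat1 was followed by 9330151L19Rik (0.97) and Clk1, a kinase of splicing factors (0.97), and Malat1 by Thoc2l (0.93) and Ankrd10 (0.92).

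Some members share their locus with other genes. On GRCm39, Snhg1 (chr19:8700319-8703812, plus strand) overlaps 790 bases of Slc3a2, an amino acid transporter subunit on the opposite strand that belongs to the stress response list. Slc3a2 moved the other way with MSNP, from 388 ± 38.1 to 597 ± 27.9 CPM (log2 fold change 0.62 ± 0.07, edgeR adjusted p = 1.21e-05), and fell with HMSNP (-0.32 ± 0.07, edgeR adjusted p = 0.0216). Snhg3 (chr4:132075325-132080997, minus strand) lies inside Rcc1 on the same strand, so reads of their shared exons are uncertain, and Rcc1 had a log2 fold change of -0.19 ± 0.08 with MSNP (edgeR adjusted p = 0.0986). Gas5 (chr1:160861793-160866118, plus strand) overlaps Zbtb37 on the opposite strand, which had a log2 fold change of -0.04 ± 0.15 with MSNP (edgeR adjusted p = 0.865). How strand was used in counting is not given in the sources used here.

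The processed snoRNAs themselves were mostly not captured in the counts. Of the 27 hosted loci, 25 had 0 counts in every library, which at this depth and after poly(A) selection says nothing about their level. Snora73a and Snora73b, box H/ACA snoRNAs in Snhg3 with similar sequences, held 511 and 1754 counts in all. Snora73b averaged 2.66 ± 0.579 CPM with MSNP and 3.99 ± 1.32 CPM in the controls (log2 fold change -0.58 ± 0.26, edgeR adjusted p = 0.123). Adding the counts of hosted snoRNAs to their hosts left 3 genes called with MSNP, the same 3.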

How the data were processed

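RAW 264.7 cells were profiled in 15 libraries, 3 per group, 6 h after treatment. Groups came from the labels, and doses and diameters from the study's methods. The authors isolated poly(A) RNA, made directional libraries, sequenced read pairs and mapped them to GRCm39. The submitters' processing notes name cutadapt 1.16, STAR 2.7.9a and featureCounts 1.6.3. The deposited values are raw counts per gene and library, without normalization or pooling. The annotation and the strand setting of the counting are not given in the sources used here. RNA came from bulk cultures, and nothing says whether libraries of a group came from separate cultures, so p-values measure only the spread between these libraries. In the sample titles each group also has its own number, whose meaning is not given. A difference tied to that number cannot be told apart from the treatment.

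Symbols, positions and lengths came from GENCODE vM39, which held 56630 of 57186 listed genes. The rest held 0.0224% of the counts. Genes with at least 10 counts in all were tested, 19839 in number. Counts were modelled with edgeR 4.0.16 (R 4.3.3), with library sizes scaled by TMM and group as the only term over all 15 libraries. Genes were called by its quasi-likelihood test at 0.05 after Benjamini-Hochberg adjustment over all tested genes. CPM values use TMM library sizes, with a prior count of 2 on the log2 scale. The 7 comparisons were each treated group against Control, MSNP or SNP50 against SNP100, and HMSNP against MSNP. On simulated counts for MSNP against Control over 19839 genes, 184 of 200 genes changed by a log2 fold of 1 were recovered with 12 false calls. Genes were drawn independently, without the shared movement of the hosts between libraries or the trend with gene length. The fold was also larger than those fitted for the members, so these rates do not apply to them.

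The members and gene lists were chosen with earlier results of these data known. Named are the 9 members, the snoRNA genes inside them, overlapping genes (1 is not reported here), the 3 genes most correlated with each member, and from each list the 2 largest called increases and decreases with MSNP and HMSNP at 1 CPM or more. Listed RNAs and markers were written by hand, and Cyrano, Cytor and 1700020I14Rik had no entry under those symbols. Alternatives were RLE and upper-quartile normalization, DESeq2 1.42.0, the 6 compared libraries alone, filterByExpr or no low-count filter, a replicate block, an offset removing each library's trend with gene length (lowess, span 0.3) with and without Control replicate 3, added counts of hosted snoRNAs, and leaving out each library. A covariate of mitochondrial ribosomal RNA was added after the data were seen.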

Additional observations from a re-analysis of the deposited data

How the results depend on the processing

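The number of calls changed with the libraries and terms in the model, and so did the fitted values. In MSNP against Control the 3 calls, with 22.8% of all genes, became 4 with DESeq2 (24.9%) and 6 with mitochondrial ribosomal RNA as a covariate (22.9%). They became 0 with only the 6 libraries of the comparison (10.9%), and ranged from 0 to 8 when 1 library was left out. In HMSNP against Control the 0 calls, with 5.16% of all genes, became 2 with DESeq2 (9.8%), 1 with the length offset (7.41%) and 7 with the covariate (6.53%). They ranged from 0 to 6 when 1 library was left out. In MSNP against SNP100 the 2 calls, with 17.9% of all genes, became 6 with the length offset and no Control replicate 3 (33.3%). They became 9 with only the 6 libraries (35.4%) and 0 with the covariate (13.7%), and ranged from 0 to 6 with 1 library left out. In SNP50 against Control the range was 0 to 1, and the 1 came where 18.6% of all genes were called. SNP100 against Control, SNP50 against SNP100 and HMSNP against MSNP kept 0 calls under every alternative. The direction turned for 3 values that were not called, Gas5 in MSNP against SNP100 with the covariate (0.056) and Snhg3 in HMSNP against Control with the length offset (0.10) and with that offset and no Control replicate 3 (0.026). In the comparisons given mainly as ranges, the sign changed in 53 of 780 fits, none of them called. With the replicate block, 3 members were called in MSNP against Control (22.1% of all genes) and 2 in MSNP against SNP100 (16.9%). In MSNP against SNP100, Snhg5 (log2 fold change -0.61) took the place of Malat1 (-0.51). Deviations of same-numbered libraries correlated from -0.52 to 0.57, above 0.1 in 10 of 30 pairs. Replicate 2 of Control, SNP50, MSNP and HMSNP correlated between 0.24 and 0.57 with each other, and SNP100 replicate 2 between -0.39 and 0.04 with these. Differently numbered libraries were not compared, so these values cannot decide whether replicate numbers pair the libraries. RLE, upper-quartile, filterByExpr, no filter and added snoRNA counts left each count within 1 of the value given. Depth was not limiting for the members, since the lowest count of any member was 232 (Snhg3 in MSNP replicate 1).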
